A study of Mus musculus with 24 samples.

Results

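The genes described here encode the cytosolic sensors that start inflammasomes, the adaptor they recruit, and the kinase NEK7. They are Nlrp3, Nlrc4, Aim2, Mefv, Naip2, Naip5, Naip6, Pycard and Nek7, chosen by name, and all 9 had a row among the 56941 gene IDs of the count table and passed the filter on low counts. They were followed in macrophages grown from bone marrow (BMDM) of mice of 3 genotypes, in 24 poly(A)-primed RNA sequencing libraries, 4 in each of 6 groups. The genotypes are a knockout (KO) of Hdac9, the gene of a class IIa histone deacetylase, a deletion of a cis-regulatory element labelled as belonging to Hdac9 (dCIS), and wild type (WT). Each genotype was left untreated or given lipopolysaccharide (LPS), which signals through the receptor TLR4, at 100 ng/ml and lysed 6 hours later. All cells, untreated ones included, had grown from bone marrow for a week in medium conditioned by L929 cells, a source of the growth factor CSF1, and had then been replated without it and kept without serum during the stimulation. The labels give no strain, age or sex of the mice, do not describe the alleles further, and do not tie libraries to animals or cultures, so that p-values reflect differences among libraries that may be technical replicates.

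An inflammasome is a complex in which a sensor, once triggered, gathers the adaptor ASC, the product of Pycard, and through it the protease caspase-1, which matures IL-1β and IL-18 and cleaves the pore protein gasdermin D. NLRP3 responds to potassium efflux and membrane damage and needs NEK7 to assemble, AIM2 binds cytosolic DNA, pyrin, the product of Mefv, responds to the inactivation of RhoA by bacterial toxins, and NLRC4 is engaged by NAIP proteins that bind bacterial flagellin or secretion system proteins. In macrophages the NLRP3 inflammasome works in steps: a priming signal such as LPS raises Nlrp3 and Il1b transcription through NF-κB, and a further trigger starts assembly. The libraries measure RNA after the priming signal and hold no measure of assembly, cleavage or secretion.

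Total counts per library lay between 14636058 and 19181707. Hdac9 averaged 0.302 ± 0.155 CPM in KO and 12.3 ± 2.83 CPM in WT after LPS, and 1.04 ± 0.218 CPM in KO and 11.2 ± 1.46 CPM in WT without treatment, and it was not lower in dCIS, at 14.6 ± 5.26 CPM after LPS and 15.6 ± 2.23 CPM untreated (mean ± SD, n = 4). Levels (CPM) are counts per 1000000 counts of the library size scaled by TMM, and the scaling factors lay between 0.695 and 0.826 after LPS and between 1.29 and 1.36 in untreated libraries. Macrophage markers were abundant in all groups, with the 9 of them summing to between 15543 and 26482 CPM per library, most of it Lyz2. Of 6 lymphocyte markers, 6 dendritic cell markers and 3 mast cell and basophil markers, the sums stayed at or below 0.442, 2.61 and 0.0466 CPM in every library. The 11 neutrophil and granulocyte precursor markers summed to 20.4 to 40.6 CPM in KO and 15.7 to 26.1 CPM in WT after LPS, and to 20.5 to 42.4 CPM in KO and 13.5 to 22.0 CPM in WT without treatment. Most of that was Mmp8, and Ly6g was at 0 in all 24 libraries. The 5 fibroblast markers summed to 6.38 to 12.2 CPM after LPS against 0 to 0.362 CPM untreated, most of it Pdgfrb, with Col3a1 at 0 in all 24 libraries. Of monocyte markers, Ly6c2 had group means of 0.644 to 0.981 CPM after LPS against 0.235 to 0.391 CPM untreated, and Ccr2 0.933 to 2.37 CPM after LPS against 1.42 to 2.37 CPM untreated. The part of these markers in the values below was not tested, and in bulk libraries fewer cells of a type and less RNA per cell cannot be told apart. Fewer genes were detected in the stimulated dCIS libraries 3 and 4, at 17628 and 15997, while the remaining 22 libraries had 20458 or more.

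Nlrp3 rose after LPS in each genotype. It had 807, 895, 742 and 764 CPM in KO libraries 1 to 4 after LPS, against 67.5, 55.0, 63.3 and 54.3 CPM in untreated KO. In dCIS it had 772, 733, 557 and 587 CPM after LPS, against 61.6, 53.0, 35.8 and 57.9 CPM untreated. In WT it had 764, 524, 545 and 693 CPM after LPS, against 81.8, 54.1, 52.1 and 52.2 CPM untreated. Every stimulated library lay far above every untreated one, and the ratio of the means was 13.4 in KO, 12.7 in dCIS and 10.5 in WT. The log2 fold changes were 3.74 (SE 0.180, adjusted p 6.97e-16) in KO, 3.67 (SE 0.180, adjusted p 1.02e-15) in dCIS and 3.39 (SE 0.178, adjusted p 3.85e-15) in WT, by the quasi-likelihood F test of edgeR with Benjamini-Hochberg adjustment over 14757 genes, as for all adjusted p-values below. Among stimulated groups KO had the highest mean and WT the lowest, and the libraries of neighbouring groups in that order overlapped.

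The bases upstream of start sites were searched for letters that NF-κB or interferon-regulated factors can bind, since LPS acts through both. The windows were RefSeq promoters of 300 bases, 250 before and 50 after a start, and the motifs were a κB-type site (GGGA and CC with 4 free bases between them) and an interferon response element (GAAA at either end with 2 free bases between), on both strands. The 9 genes had 10 such windows, 2 of them for Nlrp3. The κB letters occurred in 20.7% and the interferon letters in 3.44% of all 32851 promoters. Among the 10 windows the κB letters occurred in 2, about the share of all promoters, and the interferon letters in none. The other Nlrp3 start and the Pycard window held neither motif, and the 2 κB matches lay at the upstream start of Nlrp3 and at Nek7. A match is a description of the sequence, not evidence of binding, and no match says only that these letters are not in this window. The 250 bases upstream of those starts are shown because they hold the match, in capitals, which begins 186 bases upstream of the Nlrp3 start and 32 bases upstream of the Nek7 start. Those before Aim2 are shown beside them as a gene that rose with LPS and had neither motif. All are from GRCm38.p6, 5′ to 3′ on the strand of the gene, Nlrp3 from chr11:59541319-59541568 (plus strand), Nek7 from chr1:138619758-138620007 (minus strand) and Aim2 from chr1:173420354-173420603 (plus strand).

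Nlrp3 upstream start: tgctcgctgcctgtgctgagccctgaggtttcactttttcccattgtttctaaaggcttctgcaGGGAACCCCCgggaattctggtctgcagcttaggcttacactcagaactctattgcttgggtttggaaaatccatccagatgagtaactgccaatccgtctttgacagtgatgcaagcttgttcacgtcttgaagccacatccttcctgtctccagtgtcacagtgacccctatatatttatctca

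Nek7: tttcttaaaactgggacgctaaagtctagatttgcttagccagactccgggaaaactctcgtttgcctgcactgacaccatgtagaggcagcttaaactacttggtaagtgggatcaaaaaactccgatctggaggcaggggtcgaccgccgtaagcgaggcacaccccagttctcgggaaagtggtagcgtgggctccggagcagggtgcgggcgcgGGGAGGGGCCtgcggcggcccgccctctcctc

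Aim2: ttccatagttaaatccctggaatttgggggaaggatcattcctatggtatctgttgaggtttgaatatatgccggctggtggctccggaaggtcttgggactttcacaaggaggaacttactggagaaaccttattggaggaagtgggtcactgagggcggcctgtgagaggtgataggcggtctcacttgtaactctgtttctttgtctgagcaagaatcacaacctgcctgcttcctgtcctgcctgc

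Nek7, whose kinase binds NLRP3 and licenses its assembly, was expressed without treatment and differed far less after LPS. It had 153, 188, 150.2 and 147 CPM in KO after LPS, against 112, 130.3, 106 and 117 CPM untreated. The dCIS libraries had 156, 172, 112 and 148 CPM after LPS, against 92.2, 117, 78.3 and 95.8 CPM untreated, and the WT libraries 130.5, 137, 118 and 133 CPM after LPS, against 83.2, 96.9, 92.4 and 109.9 CPM untreated. Stimulated and untreated libraries did not overlap in KO or WT and overlapped in dCIS. On the scaled library sizes the log2 fold changes were 0.46 (SE 0.125, adjusted p 0.00255) in KO, 0.62 (SE 0.126, adjusted p 0.000121) in dCIS and 0.44 (SE 0.126, adjusted p 0.00366) in WT. On unscaled library totals their sign turned, to -0.37 (adjusted p 0.00566) in KO, -0.15 (adjusted p 0.225) in dCIS and -0.37 (adjusted p 0.00578) in WT, so no direction of the LPS response of Nek7 held under both scalings.

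Aim2, the DNA sensor, rose after LPS in each genotype, with little spread between libraries outside stimulated dCIS. In KO it had 159, 175, 162 and 168 CPM after LPS, against 26.7, 29.7, 27.6 and 24.6 CPM untreated. In dCIS it had 147, 142, 122 and 114 CPM after LPS, against 26.7, 26.0, 26.8 and 25.3 CPM untreated. In WT it had 159.8, 157, 154 and 159 CPM after LPS, against 27.7, 26.4, 24.7 and 24.7 CPM untreated. The 4 stimulated dCIS libraries lay below all stimulated KO and WT libraries, and the 2 lowest of them were libraries 3 and 4, those with fewer detected genes. The log2 fold changes were 2.61 (SE 0.0880, adjusted p 5.29e-19) in KO, 2.33 (SE 0.0874, adjusted p 4.21e-18) in dCIS and 2.60 (SE 0.0881, adjusted p 5.52e-19) in WT.

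Mefv, which encodes pyrin, was scarce without treatment and rose after LPS by about as much as Nlrp3. It had 77.8, 126, 68.5 and 52.1 CPM in KO after LPS, against 8.04, 4.62, 8.07 and 3.29 CPM untreated. The dCIS libraries had 119.6, 148, 83.9 and 87.4 CPM after LPS, against 10.8, 7.22, 6.59 and 6.16 CPM untreated, and the WT libraries 71.8, 79.4, 71.2 and 80.4 CPM after LPS, against 10.7, 3.96, 5.34 and 3.05 CPM untreated. All stimulated libraries lay above all untreated ones, while the spread between libraries was wide in stimulated KO and dCIS, where library 2 was the highest of each, and narrow in stimulated WT. The log2 fold changes were 3.76 (SE 0.328, adjusted p 1.48e-10) in KO, 3.83 (SE 0.324, adjusted p 8.32e-11) in dCIS and 3.71 (SE 0.328, adjusted p 1.92e-10) in WT.

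Nlrc4, the partner that NAIP sensors engage, was the gene that fell after LPS. KO libraries had 6.21, 4.94, 8.69 and 5.42 CPM after LPS, against 11.7, 15.2, 12.2 and 10.6 CPM untreated. In dCIS it had 8.60, 7.15, 6.88 and 5.15 CPM after LPS, against 6.72, 10.3, 7.49 and 9.14 CPM untreated. In WT it had 6.21, 5.13, 3.53 and 4.85 CPM after LPS, against 10.4, 7.92, 8.29 and 10.5 CPM untreated. The stimulated libraries lay below the untreated ones in KO and WT and overlapped with them in dCIS. Nlrc4 fell in KO and WT, with log2 fold changes of -0.97 (SE 0.195, adjusted p 0.000102) and -0.91 (SE 0.199, adjusted p 0.000288), and did not pass in dCIS at -0.27 (SE 0.194, adjusted p 0.220). Unscaled library totals gave -1.79 (adjusted p 6.38e-09) in KO, -1.04 (adjusted p 2.64e-05) in dCIS and -1.72 (adjusted p 1.86e-08) in WT. The difference of the dCIS response from that of WT was 0.63 (SE 0.278, unadjusted p 0.0311, adjusted p 0.614), so a difference between the genotypes in this fall was not established. The counts behind these levels were low, 45 to 106 per stimulated library and 143 to 378 per untreated library.

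The 3 Naip genes lie side by side on chromosome 13 and are near-copies of each other, and their counts depend on how reads that fit more than 1 copy were assigned, which the sources used here do not give. In the GENCODE M21 transcripts, 15.1% of the 60-base windows of Naip2, 30.5% of those of Naip5 and 16.7% of those of Naip6 occurred also in another gene, where 60 bases is the read length. Naip5 shared the most with Naip6, 16.6% of its windows. These shares count single windows, although the reads were paired, and take no account of the second read of a pair. Naip1 and Naip3 drew few reads, with at most 24 and 8 counts summed over the 4 libraries of any group. As an example, a coding window that is identical in the 3 genes is followed by 60 bases in which they differ at 3 positions, given in capitals. A read that falls wholly within the first window cannot, by its own bases, be told apart between the copies. In the next window Naip2 and Naip5 each carry bases of their own. Naip6 carries no base of its own there, and only its combination at the 3 positions sets it apart. The sequences are from GRCm38, 5′ to 3′ on the minus strand, at chr13:100161916-100161975 (Naip2), chr13:100223248-100223307 (Naip5) and chr13:100300535-100300594 (Naip6) for the shared window, and at chr13:100161856-100161915 (Naip2, exon 11), chr13:100223188-100223247 (Naip5, exon 9) and chr13:100300475-100300534 (Naip6, exon 10) for the window after it.

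Naip2, Naip5 and Naip6, shared window: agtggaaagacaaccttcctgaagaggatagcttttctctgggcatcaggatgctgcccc

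Naip2, next window: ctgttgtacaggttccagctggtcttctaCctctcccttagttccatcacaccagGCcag

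Naip5, next window: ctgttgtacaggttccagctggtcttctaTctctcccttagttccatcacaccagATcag

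Naip6, next window: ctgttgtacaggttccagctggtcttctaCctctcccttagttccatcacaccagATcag

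With that limit, Naip2, the sensor of the inner rod of bacterial secretion systems, was the most abundant of the 3. It had 86.3, 89.5, 84.6 and 78.5 CPM in KO after LPS, against 49.5, 53.3, 51.4 and 48.6 CPM untreated. In dCIS it had 73.5, 85.7, 55.1 and 65.0 CPM after LPS, against 31.7, 43.8, 28.6 and 34.4 CPM untreated, and in WT 71.3, 68.1, 59.0 and 76.4 CPM after LPS, against 41.2, 33.8, 40.3 and 38.8 CPM untreated. Stimulated and untreated libraries did not overlap in any genotype, and the untreated KO libraries lay above all untreated WT and dCIS libraries. Naip6, a flagellin sensor, had 30.9, 32.6, 27.1 and 28.7 CPM in KO after LPS, against 18.8, 19.7, 19.1 and 14.6 CPM untreated. Its dCIS libraries had 25.3, 31.3, 14.5 and 15.9 CPM after LPS, against 10.1, 15.9, 7.98 and 9.71 CPM untreated, and its WT libraries 20.3, 18.0, 16.5 and 27.5 CPM after LPS, against 10.5, 9.64, 10.3 and 12.0 CPM untreated. The 4 untreated KO libraries were again above the 4 untreated WT libraries, while dCIS library 2 reached into the KO range. Naip5, also a flagellin sensor, averaged 25.4 ± 2.79, 22.3 ± 2.43 and 22.0 ± 2.10 CPM (SD, n = 4) after LPS in KO, dCIS and WT, and 18.6 ± 3.42, 14.7 ± 2.29 and 14.8 ± 1.89 CPM untreated.

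On the scaled library sizes the 3 Naip genes were higher after LPS in each genotype, with log2 fold changes of 0.74, 1.01 and 0.83 in KO, dCIS and WT for Naip2 (SE 0.123 to 0.124), 0.72, 0.99 and 0.95 for Naip6 (SE 0.205 to 0.211), and 0.44, 0.60 and 0.57 for Naip5 (SE 0.134 to 0.135). The largest adjusted p of these was 0.00560, for Naip5 in KO. On unscaled totals the values of Naip2 were -0.082, 0.24 and 0.025, those of Naip6 -0.099, 0.21 and 0.14, and those of Naip5 -0.38, -0.16 and -0.24. Of these 9 values only that of Naip5 in KO had an adjusted p under 0.05, at 0.0112.

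Pycard, the gene of the shared adaptor ASC, had the smallest log2 fold changes of the 9 on scaled library sizes, and their direction depended on the scaling. It had 67.1, 90.0, 71.1 and 73.8 CPM in KO after LPS, against 52.6, 60.1, 68.1 and 62.6 CPM untreated. The dCIS libraries had 69.9, 78.6, 73.6 and 77.0 CPM after LPS, against 56.8, 60.7, 89.7 and 73.0 CPM untreated, and the WT libraries 70.9, 110.4, 96.2 and 84.2 CPM after LPS, against 65.1, 71.6, 67.8 and 67.8 CPM untreated. The groups overlapped in each genotype. On the scaled library sizes the log2 fold changes were 0.31 (SE 0.132, adjusted p 0.0435) in KO, 0.094 (SE 0.131, adjusted p 0.549) in dCIS and 0.41 (SE 0.131, adjusted p 0.00867) in WT. The call in KO was lost without any of 5 of the 8 libraries, KO after LPS 2 or 4 or untreated KO 1, 2 or 4 (adjusted p 0.0635 to 0.190), under size factors by the median-of-ratios method (0.0960), in DESeq2 (0.100) and in the fit of the compared groups alone (0.0782), and that in WT without WT library 2 after LPS (0.0604). The raw counts themselves were mostly lower after LPS in WT, at 867, 1422, 1227 and 1041 against 1401, 1538, 1424 and 1398 untreated, with library 2 after LPS within the untreated range. Unscaled library totals gave -0.51 (adjusted p 0.000901) in KO, -0.66 (adjusted p 5.18e-05) in dCIS and -0.40 (adjusted p 0.00741) in WT. Of its 60-base windows 11.3% lie in Gm45205, on the opposite strand, which had 5 to 11 counts summed over a group.

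**Figure D1:**
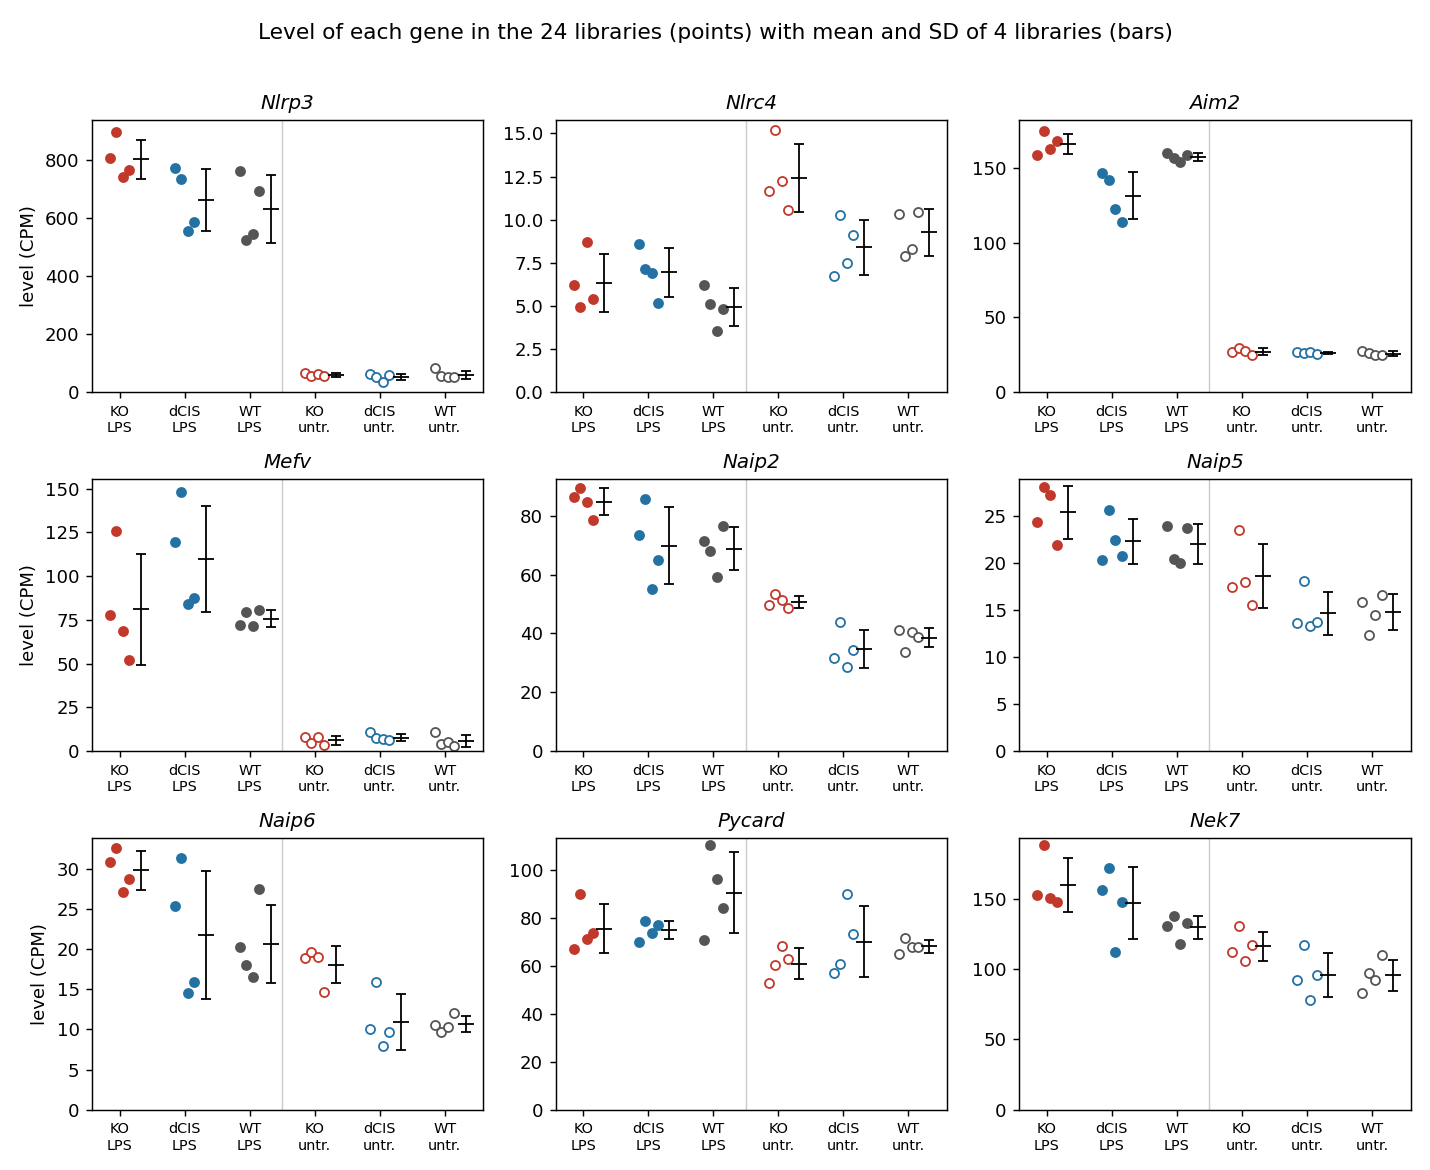
Level of each gene in CPM of the scaled library size (vertical axes, from 0) in the 6 groups of 4 libraries (points, libraries 1 to 4 from left to right; filled after LPS, open untreated), with the mean and SD. Nlrp3, Aim2 and Mefv separate stimulated from untreated libraries widely, Nlrc4 is lower after LPS in KO and WT, and the untreated KO libraries of Naip2 and Naip6 lie above those of WT.

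Counted together, 9 of the 9 genes were called between stimulated and untreated cells in KO (8 higher, 1 lower), 7 in dCIS (7 higher) and 9 in WT (8 higher, 1 lower). This is to be read against the response of all genes, since 61.6% of the 14757 tested genes were called in KO, 64.7% in dCIS and 61.4% in WT. The share of all tested genes called higher was 30.9% in KO, 31.3% in dCIS and 30.4% in WT, and the share called lower was 30.7% in KO, 33.3% in dCIS and 31% in WT. The median log2 fold change of the 9 genes was 0.72 in KO, 0.99 in dCIS and 0.83 in WT, against 0.02, -0.05 and 0.00 over all tested genes. Unscaled totals moved the median of all genes by -0.82 in KO, -0.76 in dCIS and -0.81 in WT, and changed the split of all called genes to 2044 higher and 9494 lower in KO, 2233 and 9448 in dCIS and 2067 and 9525 in WT, against 4558 and 4527, 4626 and 4921, and 4484 and 4571 on the scaled sizes. Of the 9 genes, 7 in KO (3 higher, 4 lower), 5 in dCIS (3 higher, 2 lower) and 6 in WT (3 higher, 3 lower) were called on unscaled totals. Under both scalings Nlrp3, Aim2 and Mefv rose and Nlrc4 was lower. On unscaled totals the smallest of the rises was that of Aim2, at 1.79 in KO, 1.56 in dCIS and 1.79 in WT, with adjusted p-values of at most 2.43e-15. Without the filter on low counts Pycard lost its call in KO and WT (adjusted p 0.417 and 0.144), Naip5 in KO (0.146) and Nek7 in WT (0.0782).

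**Figure D2:**
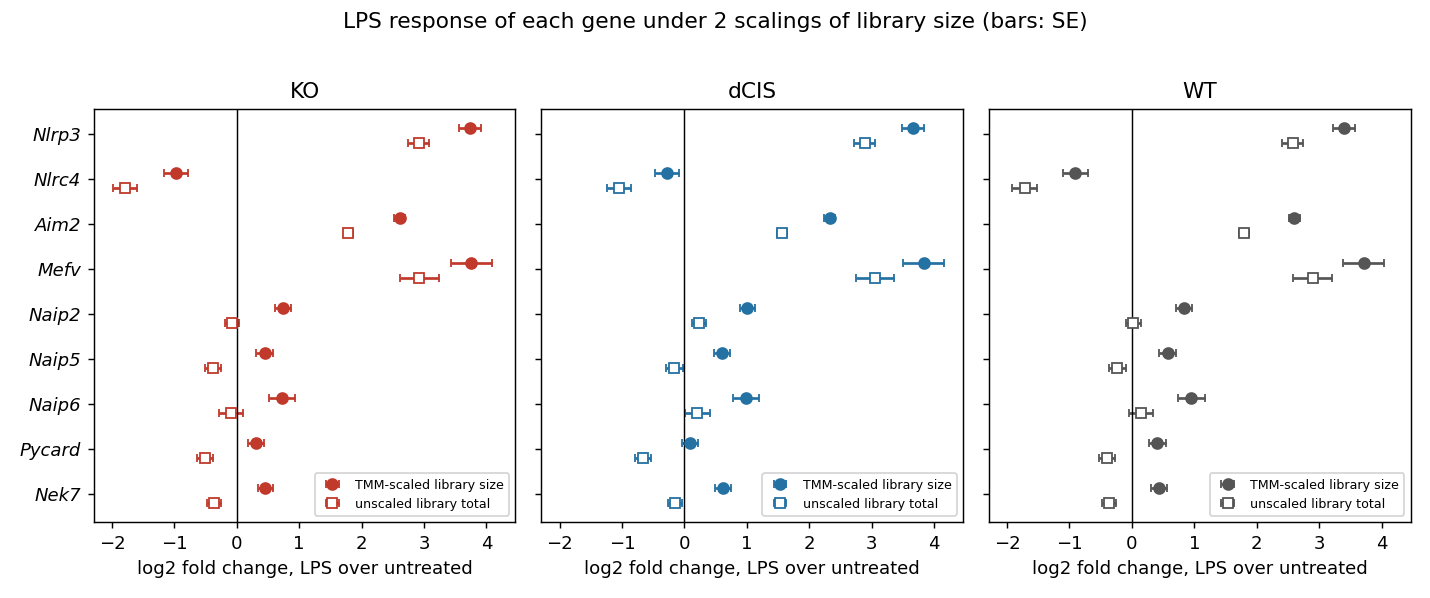
Log2 fold change of each gene, LPS over untreated (horizontal axis, bars are SE), in KO, dCIS and WT, on library sizes scaled by TMM (filled circles) and on unscaled library totals (open squares). Nlrp3, Aim2 and Mefv lie right of 0 and Nlrc4 left of 0 under both, while Pycard, Nek7 and Naip5 change sides in each genotype and Naip2 and Naip6 in KO.

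Between untreated KO and WT, Naip2 and Naip6 were called higher in KO, 2 of the 9 genes against 7.31% of all tested genes called in either direction and 5.03% called higher. The log2 fold change was 0.76 (SE 0.208, adjusted p 0.0295) for Naip6, from means of 18.0 ± 2.33 CPM in KO and 10.6 ± 1.00 CPM in WT (SD, n = 4 each), and 0.40 (SE 0.123, adjusted p 0.0484) for Naip2, from 50.7 ± 2.07 CPM in KO and 38.5 ± 3.32 CPM in WT. Nlrc4 stood higher in each of the 4 KO libraries, at 12.4 ± 1.98 CPM in KO and 9.26 ± 1.34 CPM in WT, and did not pass at 0.42 (SE 0.184, adjusted p 0.149). Naip5 and Nek7 did not pass either, at 0.33 (SE 0.134, adjusted p 0.117) and 0.28 (SE 0.125, adjusted p 0.157), while DESeq2 called Naip5 (0.38, adjusted p 0.0482) beside Naip2 and Naip6. In this comparison DESeq2 called 2097 of all genes and edgeR 1079. Nlrp3, Aim2, Mefv and Pycard differed by -0.00086, 0.070, 0.051 and -0.16 (SE 0.164, 0.0851, 0.333 and 0.131, adjusted p 0.464 or more). The fits without 1 library each gave log2 fold changes of 0.34 to 0.43 for Naip2 and 0.72 to 0.86 for Naip6, and ended the call of Naip2 in 8 of 8 cases (adjusted p 0.0666 to 0.172) and that of Naip6 in 6 of 8 (0.0532 to 0.112), all but those without KO library 4 or WT library 4, and without both KO libraries numbered 2 they had adjusted p-values of 0.0892 and 0.0556. On unscaled totals Naip2 had an adjusted p of 0.0535.

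Gene length moved with this comparison. Of all tested genes, the longest 25% by annotated exon length (6122 bases or more) had a median log2 fold change of 0.24 and the shortest 25% (up to 1876 bases) one of -0.24 between untreated KO and WT. Between KO and WT after LPS these medians were 0.23 and -0.19. Of the called genes, Naip6 has 6827 annotated exon bases and Naip2 4846. Of the others, Nek7 has 7376, Naip5 5204, Nlrc4 4807, Nlrp3 4057, Pycard 3800, Aim2 3501 and Mefv 3251. The 3800 bases of Pycard exceed the 2495 that RefSeq gives to the whole gene, so its place by length is uncertain. The part of length in the differences of the 9 genes was not tested. With a smooth trend over exon length taken out of each library, a setting added after seeing these data, 171 genes were called between untreated KO and WT in place of 1079, and 0 of the 9 genes. Naip6 then stood at 0.61 (SE 0.181, adjusted p 0.0852), Naip2 at 0.35 (SE 0.112, adjusted p 0.107) and Nek7 at 0.099 (SE 0.101, adjusted p 0.659). The sum of neutrophil and granulocyte precursor markers was also higher in KO, with medians of 29.4 CPM in untreated KO and 17.8 CPM in untreated WT. Most of it was Mmp8, with means of 28.2 CPM in untreated KO and 15.9 CPM in untreated WT. S100a8 (1.22 and 1.43 CPM) and Camp (0.023 and 0.035 CPM) were lower in KO. S100a9 (0.56 and 0.18 CPM), Ngp (0.20 and 0.059 CPM) and Cxcr2 (0.11 and 0.071 CPM) were higher in KO. So were Ltf (0.070 and 0 CPM), Mpo (0.052 and 0.023 CPM) and Elane (0.022 and 0 CPM), while Retnlg and Ly6g were at 0 in both groups. The part of these markers in the differences of the 9 genes was not tested.

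**Figure D3:**
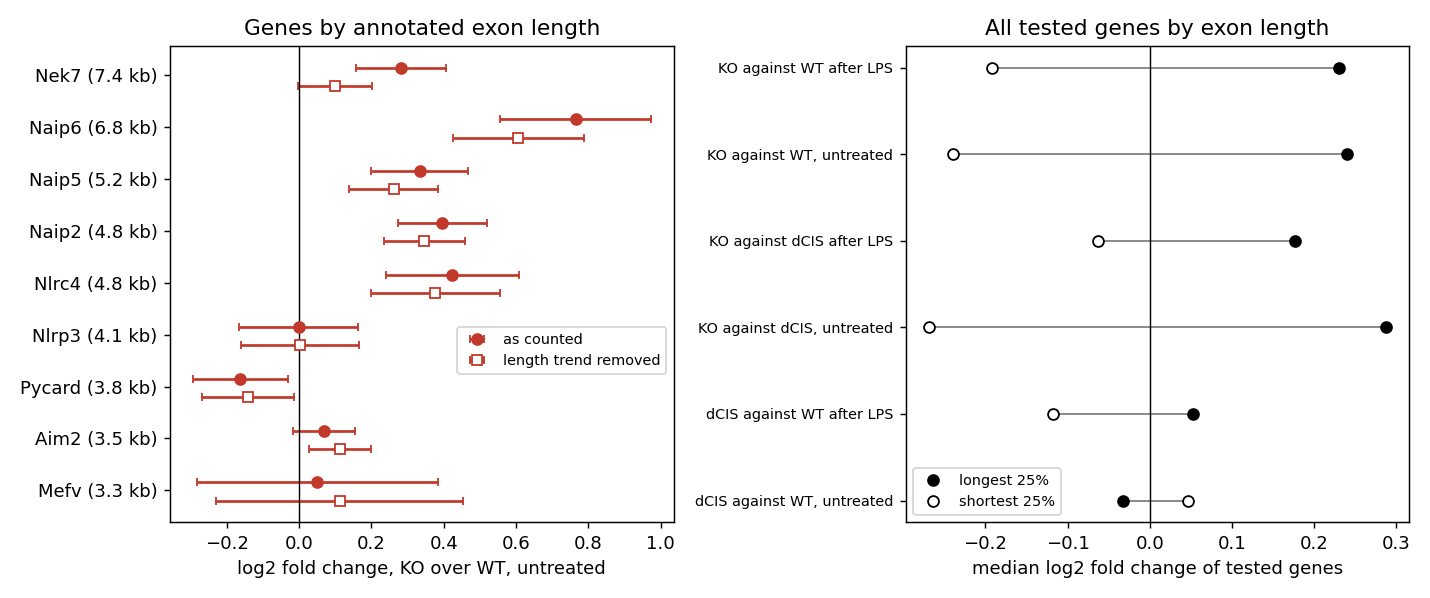
Left, log2 fold change of each gene between untreated KO and WT (bars are SE), with genes ordered by annotated exon length, as counted (filled) and with the length trend of each library removed (open). The place of Pycard by length is uncertain, since its annotated exon length exceeds its RefSeq gene span. Right, median log2 fold change of the longest (filled) and shortest (open) 25% of all tested genes in the genotype comparisons, which differ by 0.48 between untreated KO and WT and by -0.08 between untreated dCIS and WT.

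Between untreated KO and dCIS, Naip2, Naip6 and Nlrc4 were called higher in KO, 3 of the 9 genes against 21.3% of all tested genes called in either direction and 12.1% called higher. Their log2 fold changes were 0.55 (SE 0.123, adjusted p 0.00436), 0.72 (SE 0.207, adjusted p 0.0160) and 0.56 (SE 0.185, adjusted p 0.0310), from means of 50.7 ± 2.07, 18.0 ± 2.33 and 12.4 ± 1.98 CPM in KO and 34.6 ± 6.57, 10.9 ± 3.46 and 8.40 ± 1.60 CPM in dCIS. Naip5 and Nek7 had 0.35 and 0.28 (SE 0.134 and 0.125, adjusted p 0.0647 and 0.110) and did not pass, while DESeq2 called Naip5 (0.38, adjusted p 0.0396). Untreated KO and dCIS libraries of the same number deviated together from their group means (correlations 0.114 to 0.359 over the 4 numbers), and with the number as a replicate block Nek7 was called (0.29, adjusted p 0.0247). The comparison with WT uses the same KO libraries, so these values are not a second measurement. Naip2 kept its call in all 8 fits without 1 library. Naip6 lost it without dCIS library 3 (adjusted p 0.0698), and Nlrc4 without KO library 2 (0.104) or 3 (0.0559) or dCIS library 1 (0.108) or 3 (0.110), in the fit of these groups alone (0.0551) and without both KO libraries numbered 2 (0.0957). The medians of the longest and shortest 25% of genes differed by 0.56 here, and with the trend removed Naip2 and Naip6 had 0.49 (SE 0.112, adjusted p 0.00738) and 0.55 (SE 0.181, adjusted p 0.0444), and Nlrc4 0.51 (SE 0.179, adjusted p 0.0620). By library the length trend stood apart in untreated dCIS library 2 (0.38, longest minus shortest 25%) and library 3 (-0.41), and library 2 was the highest of its group in 5 of the 9 genes and library 3 the lowest in 5. The shares of all genes that were highest or lowest in these libraries are not given here.

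Between untreated dCIS and WT none of the 9 genes was called, against 0.0542% of all tested genes, and none had an unadjusted p under 0.05. DESeq2 likewise called none of them. Nlrp3 averaged 52.1 ± 11.4 CPM in dCIS and 60.0 ± 14.5 CPM in WT, with a log2 difference of -0.20 (SE 0.164). Mefv had the largest difference, 0.42 (SE 0.327), and the other 7 genes lay between -0.15 and 0.042. The adjusted p was 1 for all 9, which does not show that the genotypes are alike. The SE lay between 0.0852 for Aim2 and 0.327 for Mefv.

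After LPS, none of the 9 genes was called between KO and WT, against 2.74% of all tested genes, and none between dCIS and WT, against 0.258%. DESeq2 called none in either. Between KO and WT 4 genes had an unadjusted p under 0.05, Nlrp3 at 0.34 (SE 0.161, adjusted p 0.217), Naip2 at 0.30 (SE 0.123, 0.158), Naip6 at 0.54 (SE 0.207, 0.140) and Nek7 at 0.30 (SE 0.126, 0.169). Of all 14757 tested genes 3123 had one there. For Nlrp3 the stimulated means were 802 ± 67.5 CPM in KO and 632 ± 116 CPM in WT, and 1 WT library, at 764 CPM, lay within the KO range. A fit of the stimulated KO and WT libraries alone called Naip2, Naip6 and Nek7 (adjusted p 0.0408, 0.0229 and 0.0423). That fit called 1995 of all genes, in place of 405. Between dCIS and WT 3 genes had an unadjusted p under 0.05, Nlrc4 at 0.50 (SE 0.207, adjusted p 0.291), Aim2 at -0.26 (SE 0.0825, 0.165) and Pycard at -0.27 (SE 0.132, 0.374). Of all 14757 tested genes 1933 had one there. The 4 dCIS libraries of Mefv lay above the 4 WT libraries, at 109.8 ± 30.3 CPM in dCIS and 75.7 ± 4.86 CPM in WT, and the test gave 0.54 (SE 0.284, adjusted p 0.431). Without the filter on low counts Mefv was called higher between dCIS and WT (adjusted p 0.00455) and lower between KO and dCIS (0.0219), and Naip6 higher between KO and WT (0.0158). In these comparisons, in that order, this setting called 277, 850 and 1038 of all genes, in place of 38, 322 and 405.

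Between stimulated KO and dCIS, Aim2 was called, 1 of the 9 genes against 2.18% of all tested genes called in either direction and 1.35% called higher. It was higher in KO, at 166 ± 6.85 CPM in KO and 131 ± 15.8 CPM in dCIS, the libraries did not overlap, and its log2 fold change was 0.34 (SE 0.0825, adjusted p 0.0300). Without dCIS libraries 3 and 4, the ones with fewer detected genes, the value was 0.20 (adjusted p 0.592). The call was also lost without any of 6 of the 8 libraries (adjusted p 0.0532 to 0.119), all but dCIS libraries 1 and 2, in the fit of these groups alone (0.167) and without the filter on low counts (0.165). Whether the lower Aim2 of dCIS belongs to the genotype or to those libraries cannot be told apart.

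**Figure D4:**
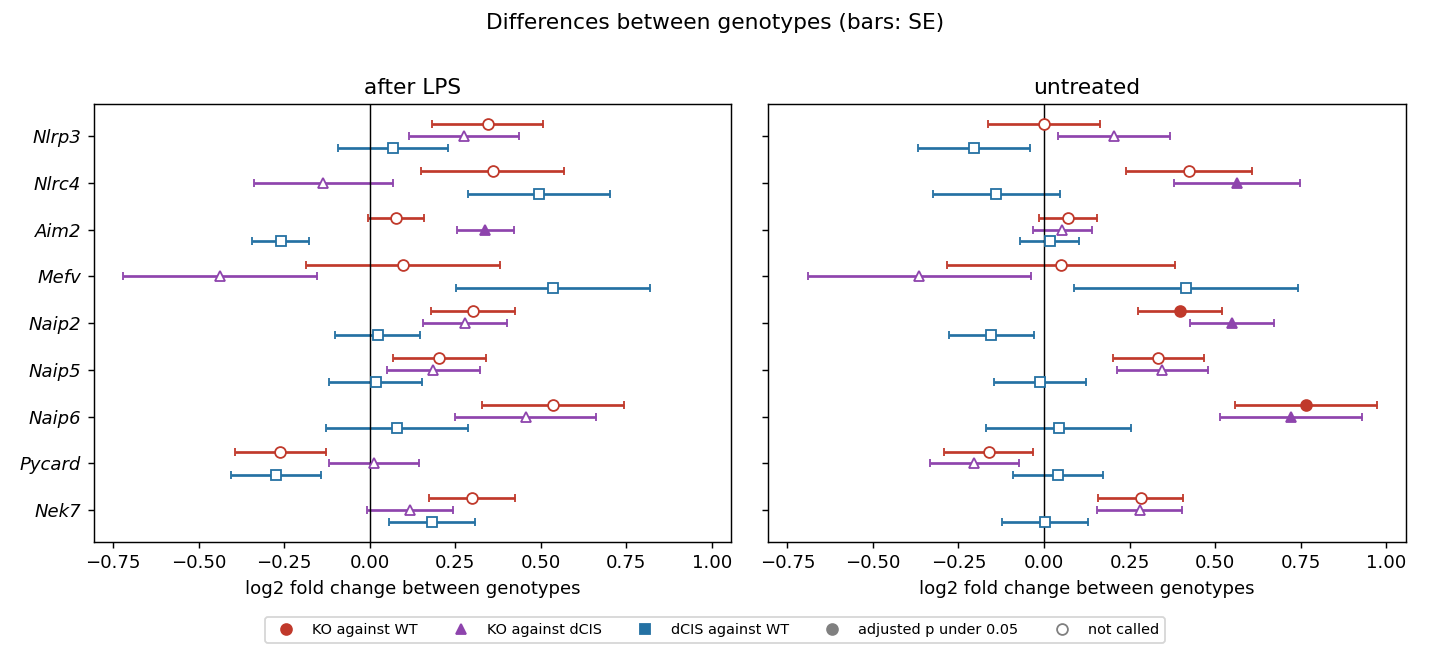
Log2 fold change between genotypes (horizontal axis, bars are SE) after LPS (left) and untreated (right) for KO against WT (circles), KO against dCIS (triangles) and dCIS against WT (squares), filled where the adjusted p is under 0.05. The filled points are Naip2 and Naip6 of untreated KO against WT, these and Nlrc4 of untreated KO against dCIS, and Aim2 of stimulated KO against dCIS.

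The LPS response itself was compared between genotypes by the difference of the log2 fold changes. For KO minus WT none of the 9 genes passed, against 0.0203% of all tested genes, and none had an unadjusted p under 0.05. Nlrp3 had the largest difference, 0.35 (SE 0.230, adjusted p 1.00), and Aim2 the best bounded, 0.0076 (SE 0.119). For dCIS minus WT none passed, against 0% of all tested genes, and Nlrc4 and Aim2 had unadjusted p-values under 0.05, Aim2 at -0.28 (SE 0.119, unadjusted p 0.0278, adjusted p 0.605). An unadjusted p under 0.05 was reached there by 1159 of all 14757 tested genes. DESeq2 called none of the 9 in either comparison. The higher levels of Naip2 and Naip6 in untreated KO thus came with response differences of -0.094 (SE 0.173) and -0.23 (SE 0.292).

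Around the sensors, most genes of inflammasome effectors rose with LPS. Over all tested genes 30.9%, 31.3% and 30.4% were called higher in KO, dCIS and WT, and 30.7%, 33.3% and 31% lower. Of 9 tested effectors and substrates, 8 rose in each genotype, and Gsdme, named after its values were seen, had -0.41, -0.41 and -0.96 in KO, dCIS and WT and was called lower in WT, while Ninj1 was called higher on scaled sizes and changed sign on unscaled totals in KO and WT. Il18, the cytokine precursor, had 163 ± 21.9, 166 ± 10.5 and 181 ± 13.0 CPM after LPS in KO, dCIS and WT, against 5.64 ± 0.884, 6.45 ± 0.508 and 6.70 ± 0.876 CPM untreated. Casp1, the effector protease, had 528 ± 28.5, 479 ± 41.7 and 510.1 ± 11.6 CPM after LPS in KO, dCIS and WT, against 84.4 ± 12.7, 93.7 ± 8.96 and 87.0 ± 5.27 CPM untreated. Casp4, the mouse sensor protease for cytosolic LPS, rose by 3.87, 3.59 and 3.76 on the log2 scale and Il1a by 7.81, 7.07 and 7.73 in KO, dCIS and WT (adjusted p 7.27e-15 or less). The median log2 fold change of the 9 was 2.64 in KO, 2.35 in dCIS and 2.55 in WT. Between genotypes none of them was called in any of the 6 comparisons, against 0.0542% to 21.3% of all tested genes. The largest number at an unadjusted p under 0.05 was 4, between stimulated KO and dCIS, where 2975 of all 14757 tested genes had one.

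Of 31 listed regulators of NLRP3 and AIM2 priming and assembly, 28 were in the table and 27 were tested, with a median log2 fold change of 1.14 in KO, 1.06 in dCIS and 1.09 in WT. Of the 27, 19 were called higher in each genotype and 5, 4 and 5 lower in KO, dCIS and WT. The shares over all tested genes were 30.9%, 31.3% and 30.4% higher and 30.7%, 33.3% and 31% lower. Guanylate-binding proteins, interferon-induced GTPases that open bacterial membranes, led the rises, with Gbp2 at 7.08, 7.04 and 7.42, Gbp3 at 6.85, 7.17 and 7.21 and Gbp5 at 9.14, 9.22 and 9.50 on the log2 scale in KO, dCIS and WT, and Ifi204, a DNA sensor of the same family as AIM2, at 4.09, 4.11 and 4.10 (adjusted p 6.36e-19 or less). Those that fell, named after their values were seen, included Card9, Kcnk6, Panx1 and P2rx7 in each genotype. P2rx7 encodes the ATP-gated channel and Kcnk6 a potassium channel that feed the NLRP3 trigger, and the log2 fold changes in KO, dCIS and WT were -1.73, -1.05 and -1.51 for P2rx7 and -1.89, -1.47 and -1.64 for Kcnk6. On unscaled totals 15 were called higher in each genotype and 9, 10 and 9 lower, and Brcc3, Pstpip1 and Rhoa changed sign in each, with Oxsr1 in KO.

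Of 17 other listed genes of the NLR family and CARD or pyrin sensors, 16 were in the table and 10 were tested. Of the 10, 3 were called higher and 5 lower in KO, 5 and 4 in dCIS and 4 and 5 in WT. Over all tested genes 30.9% were called higher and 30.7% lower in KO, 31.3% and 33.3% in dCIS and 30.4% and 31% in WT. The median log2 fold change of these 10 genes was -0.60 in KO, -0.15 in dCIS and -0.57 in WT. Nod1 and Nod2, sensors of bacterial peptidoglycan, rose in KO, dCIS and WT by log2 values of 4.62, 4.51 and 4.48 for Nod1 and 3.54, 3.68 and 3.42 for Nod2, and Nlrc5, a regulator of MHC class I genes, by 4.09, 4.28 and 4.16. Nlrc3 fell by 2.50, 2.16 and 2.28. The further falls, named after their values were seen, were Nlrx1, Nlrp1a and Nlrp1b in each genotype and Nlrp10 in KO and WT. On unscaled totals 3 were called higher and 7 lower in each genotype, with Dpp9 changing sign in WT and Dpp8 and Dpp9 in dCIS.

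Between untreated KO and WT, where 7.31% of all tested genes were called, 1 of the 27 regulators was called, Gbp7 at 0.92 (SE 0.212, adjusted p 0.0175). Of the 10 genes of the third list 2 were called, Dpp8 and Nlrc5 at 0.48 (SE 0.122, adjusted p 0.0236) and 0.57 (SE 0.151, adjusted p 0.0275). With the length trend removed Gbp7 kept its call (0.83, adjusted p 0.0402), and Dpp8 and Nlrc5 did not (0.12 and 0.35, adjusted p 0.373 and 0.139). Between untreated KO and dCIS, 8 of the 27 regulators and 3 of the 10 genes of the third list were called, all higher in KO, against 21.3% of all tested genes called and 12.1% called higher, led by Gbp7 at 1.23 (SE 0.216, adjusted p 0.00107), Kcnk6 at 0.45, Trim30a at 0.51 and Usp47 at 0.27, and by Dpp8, Nlrc5 and Dpp9 at 0.58, 0.59 and 0.42. Without the length trend 4 regulators were called higher and 1 lower and 0 genes of the third list, and Usp47 changed sign. In the remaining genotype comparisons, after LPS and for untreated dCIS against WT, edgeR called no gene of the 3 lists, against 0.0542% to 2.74% of all tested genes. At most 9 regulators, 4 effectors and 2 genes of the third list had an unadjusted p under 0.05 in any of them. Those numbers were reached between stimulated KO and dCIS, where 2975 of all 14757 tested genes had one.

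**Figure D5:**
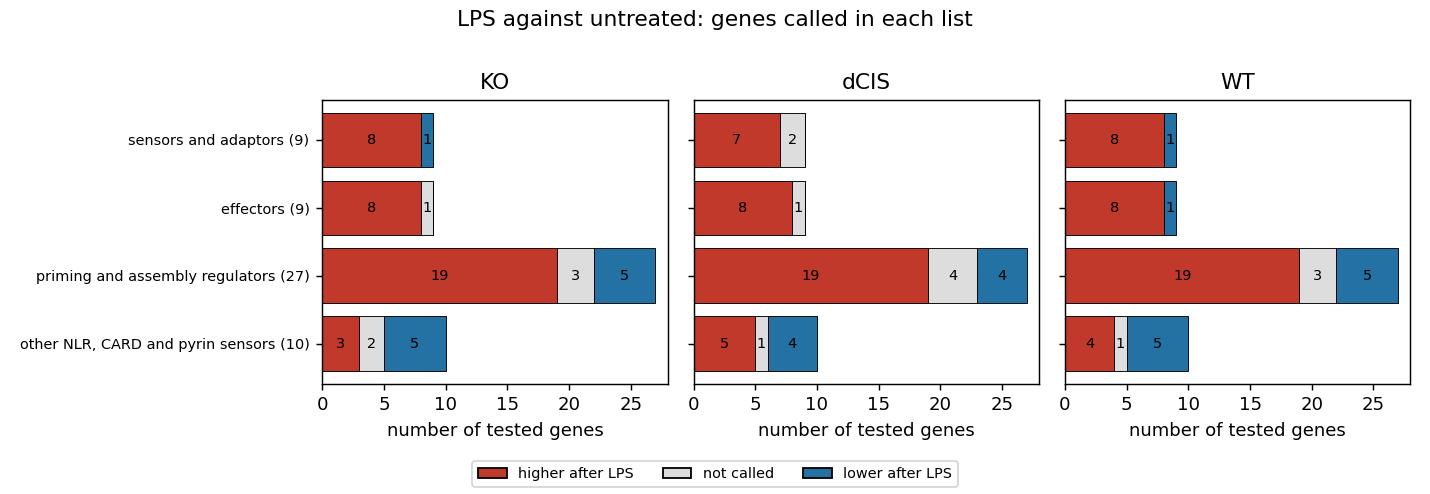
Number of tested genes, on scaled library sizes, called higher (left), not called (middle) and called lower (right) after LPS at an adjusted p under 0.05 in KO, dCIS and WT, for the 9 sensors and adaptors and the 3 lists of pathway genes. On these sizes most of the 9 genes, effectors and regulators are called higher. The list of other NLR family and CARD or pyrin sensors, which also holds Dpp8 and Dpp9, is split. Over all tested genes 30.4% to 31.3% are called higher and 30.7% to 33.3% lower. On unscaled totals fewer are called higher, 3 of the 9 genes and 15 regulators in each genotype.

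Per kilobase of annotated exon, Nlrp3 had the highest level of the 8 genes compared after LPS, 198 ± 16.6, 163 ± 26.2 and 156 ± 28.6 CPM per kb in KO, dCIS and WT, followed by Aim2 at 47.4 ± 1.96, 37.5 ± 4.50 and 44.9 ± 0.761. Nlrc4, the lowest, had 1.31 ± 0.347, 1.45 ± 0.294 and 1.03 ± 0.230 CPM per kb. Untreated, Nlrp3 and Nek7 were near each other, at 14.8 ± 1.59 and 15.8 ± 1.41 CPM per kb in KO, 12.8 ± 2.81 and 13.0 ± 2.16 in dCIS and 14.8 ± 3.58 and 13.0 ± 1.51 in WT, and overlapped between libraries. The level of Pycard per kb is left out, since the 3800 exon bases given to it in GENCODE M21 exceed the 2495 bases that RefSeq gives to the whole gene.

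The genes whose pattern over the 24 libraries came closest, by the root mean square difference of centred log2 CPM, were Tnfaip3, Nod2 and Kpna3 for Nlrp3 (0.127, 0.182 and 0.197) and Crlf3, Dnaja2 and Aftph for Aim2 (0.107, 0.119 and 0.129). For Nlrc4 they were Fech, Ranbp10 and Rufy2 (0.207, 0.208 and 0.222), and for Pycard Brk1, Cox8a and Saraf (0.124, 0.133 and 0.143). The nearest of the 9 genes to Nlrp3 was Mefv at 0.477 and the nearest to Aim2 was Nlrp3 at 0.598. These distances describe the same libraries as the comparisons above.

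The tested genes beside the genes called between genotypes did not all move with them. Outside the Naip cluster on chromosome 13, Serf1 and Smn1 on the side of Naip2 had log2 fold changes of -0.07 and -0.23 between untreated KO and WT (SE 0.342 and 0.109, adjusted p 0.924 and 0.186), and Rpl31-ps13 and Gtf2h2 on the side of Naip6 -0.53 and -0.06 (SE 0.275 and 0.136, adjusted p 0.231 and 0.811). Between untreated KO and dCIS, Birc6 and Slc30a6 near Nlrc4 on chromosome 17 were called higher in KO with it, at 0.78 and 0.36 (SE 0.139 and 0.0996, adjusted p 0.00131 and 0.0133), while Spast and Yipf4 had 0.25 and 0.01 (adjusted p 0.0594 and 0.955). Beside Aim2 on chromosome 1, Dusp23, Gm2710, Ifi206 and Ifi214 had -0.47, 0.78, 0.17 and 0.17 between stimulated KO and dCIS (SE 0.191, 0.791, 0.165 and 0.165, adjusted p 0.175 to 0.614).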

How the data were processed

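RNA was captured on oligo-dT beads and sequenced in paired 60-base reads, per the labels' protocols. The authors deposited whole-number read counts per Ensembl gene ID for all 24 libraries. STAR, edgeR and the build mm39 are named in the submitters' processing notes, and no source used here gives the counting tool or the strand setting. Of the IDs, 91.2% matched a gene symbol.

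Counts were tested with edgeR 4.0.16 in R 4.3.3: genes kept by filterByExpr (minimum count 10, minimum total 15; 14757 genes), TMM scaling, 6 group means with 18 residual degrees of freedom, quasi-likelihood F test, Benjamini-Hochberg adjustment over all genes tested, call at an adjusted p under 0.05. SE is the absolute log2 fold change over the square root of F. The procedure was first tested on simulated data. All 9 genes were tested in every comparison, and not every value is printed. Of the pathway lists, the genes that a fixed rule ranked highest were named, beside those marked as named after their values were seen. The genes, lists and tests were chosen with earlier results of these data known. Exon lengths and sequences came from GENCODE M21 and RefSeq annotation of GRCm38, a build other than that of the counts. Alternatives were RLE size factors, unscaled totals, no filter, a stricter filter (1 CPM in 4 libraries), a replicate block, the compared groups alone, DESeq2 1.42.0, a length trend as offset (lowess span 0.3), and fits without libraries. Unscaled totals and the length trend were added after seeing the data. Stimulated and untreated libraries with the same number had correlations of their deviations from the group means of 0.155 to 0.296 in KO, 0.0396 to 0.339 in dCIS and 0.113 to 0.150 in WT, and in each genotype 4 of 4 libraries correlated best with their own number. Across genotypes these correlations lay between -0.154 and 0.359. The labels give the numbers and no reason for the pairing. No 2 libraries of a group agreed within counting error. The values of 1 monocyte marker and 1 regulator are not reported here.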

Additional observations from a re-analysis of the deposited data

Results flagged for a closer look

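In 4 of the 54 sets of 4 libraries (9 genes in 6 groups), 1 library lay far from the other 3 by Dixon's test at the 95% level, which chance gives in about 1 of 20 sets. Nlrp3 had 81.8 CPM in untreated WT library 1, above the others. Naip5 had 18.1 CPM in untreated dCIS library 2, above the others, a library that also stood apart in the trend over gene length. Naip6 had 14.6 CPM in untreated KO library 4, below the others, and the difference of Naip6 between KO and WT kept its call without that library (adjusted p 0.0344). Nek7 had 187.9 CPM in KO library 2 after LPS, above the others, and that library was the highest of its group in 8 of the 9 genes. Its scaling factor, 0.695, was the lowest of all libraries, and the share of all genes that were highest in it is not given here.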

How the results depend on the processing

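The direction of the rise of Nlrp3, Aim2 and Mefv and of the lower Nlrc4 with LPS held in every genotype under every alternative, and a stricter filter changed no call or direction of the 99 log2 fold changes. The number of genes called of the 9 changed. For LPS it was 7 in KO, 5 in dCIS and 6 in WT on unscaled totals, and 7 in each without a filter. For untreated KO against WT it was 3 in DESeq2 and under the replicate block across groups, 1 on unscaled totals, 0 with the length trend removed, 0 without both KO libraries 2, and 0 to 1 without 1 library. For stimulated KO against WT it was 1 without a filter and 3 in the compared groups alone, and for stimulated dCIS against WT 1 without a filter. For stimulated KO against dCIS it was 0 on unscaled totals, in the compared groups alone, without dCIS libraries 3 and 4 and without both KO libraries 2, and 0 to 3 without 1 library. Without a filter it was 1 there too, with Mefv called and Aim2 not. For untreated KO against dCIS it was 4 in DESeq2 and under the block and 1 to 5 without 1 library. The cause was not tested. Over all genes, calls ranged from 90 to 2351 for untreated KO against WT (1079 as reported), 1198 to 4488 for untreated KO against dCIS (3147), 68 to 1995 for stimulated KO against WT (405), 62 to 1446 for stimulated KO against dCIS (322), 6 to 277 for stimulated dCIS against WT (38) and 5 to 80 for untreated dCIS against WT (8). With RLE size factors the sign turned for Nlrp3 0.041 (untreated KO against WT), Naip5 0.0013 (untreated dCIS against WT), Aim2 -0.020, Nek7 -0.0085 (response of KO minus WT). On unscaled totals the sign turned for Naip5 -0.24, Pycard -0.40, Nek7 -0.37 (LPS in WT), Naip2 -0.082, Naip5 -0.38, Naip6 -0.099, Pycard -0.51, Nek7 -0.37 (LPS in KO), Naip5 -0.16, Pycard -0.66, Nek7 -0.15 (LPS in dCIS), Pycard -0.085 (stimulated KO against dCIS), Aim2 -0.0042, Nek7 -0.00056 (response of KO minus WT). With the length trend removed the sign turned for Nlrp3 0.0023 (untreated KO against WT), Naip5 0.00049 (untreated dCIS against WT), Naip2 -0.016, Naip5 -0.026 (stimulated dCIS against WT), Naip5 -0.027, Naip6 -0.034 (response of dCIS minus WT). Without a filter the sign turned for Pycard -0.045 (LPS in dCIS), Pycard -0.0059 (stimulated KO against dCIS). Under the replicate block across groups the sign turned for Nlrp3 0.021 (untreated KO against WT), Nek7 -0.0097 (untreated dCIS against WT), Mefv -0.043 (response of KO minus WT). With the replicate block within genotype the sign turned for Mefv -0.041 (response of KO minus WT). In the compared groups alone the sign turned for Pycard -0.046 (stimulated KO against dCIS). In DESeq2 the sign turned for Nlrp3 0.042 (untreated KO against WT), Naip5 0.0013 (untreated dCIS against WT), Aim2 -0.021, Nek7 -0.0086 (response of KO minus WT). Without stimulated dCIS libraries 3 and 4 the sign turned for Nek7 -0.041 (stimulated KO against dCIS). Without both KO libraries 2 the sign turned for Nlrp3 0.041 (untreated KO against WT), Mefv -0.20 (stimulated KO against WT), Pycard -0.080 (stimulated KO against dCIS), Nlrc4 0.15, Mefv -0.36, Nek7 -0.013 (response of KO minus WT). The replicate block across groups also called Nek7 for untreated KO against WT (0.28, adjusted p 0.0496) and against dCIS (0.29, adjusted p 0.0247), and the block within genotype changed no call of the 9 genes. Without 1 library each, values that were not called turned sign over these ranges: Nlrp3 -0.062 to 0.19, Mefv -0.15 to 0.54 (untreated KO against WT), Aim2 -0.0061 to 0.051, Naip5 -0.13 to 0.050, Naip6 -0.20 to 0.18, Pycard -0.087 to 0.13, Nek7 -0.11 to 0.10 (untreated dCIS against WT), Nlrc4 -0.26 to 0.062, Aim2 -0.040 to 0.052, Mefv -0.44 to 0.25, Pycard -0.20 to 0.0090, Nek7 -0.073 to 0.076 (response of KO minus WT), Mefv -0.37 to 0.33, Naip5 -0.050 to 0.14, Naip6 -0.19 to 0.27 (response of dCIS minus WT), Mefv -0.20 to 0.26 (stimulated KO against WT), Nlrp3 -0.018 to 0.17, Naip2 -0.095 to 0.12, Naip5 -0.061 to 0.056, Naip6 -0.15 to 0.25 (stimulated dCIS against WT), Pycard -0.079 to 0.068 (stimulated KO against dCIS). Nlrc4 had 45 to 378 counts per library, and how far depth or the spread between libraries sets its error was not separated.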
